A study of Rattus norvegicus with 9 samples.

Results

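The genes described here encode the machinery that shows peptides to T cells on molecules of the major histocompatibility complex (MHC), which in the rat is called RT1. They were chosen by symbol, as the 10 rows of the deposited table named RT1-A1, RT1-A2, B2m, Tap1, Tap2, RT1-Da, RT1-Db1, RT1-Ba, RT1-Bb and Cd74, out of 22601 genes in all. RNA of rat heart tissue was sequenced at 48 weeks of age in 9 libraries, 3 per group. Treated SHR were spontaneously hypertensive rats dosed by mouth over 34 weeks with Allisartan, which blocks type 1 angiotensin receptors, in 1 ml of distilled water. SHR were rats of that strain dosed with the water alone over the same time. WKY were Wistar Kyoto rats, a related strain with normal blood pressure, also dosed with the water alone. The dose of Allisartan and the sex of the animals are not given in the labels, nor is it stated that libraries and animals match one to one, so a p-value here rests on spread between libraries that may be partly technical. In a comparison with WKY, the strain and its hypertension cannot be told apart.

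Class I molecules sit on nearly all nucleated cells and present peptides made in the cytosol to CD8 T cells. A class I heavy chain (RT1-A1, RT1-A2) pairs with the light chain beta-2 microglobulin (B2m) and is loaded with peptides that the transporter made of Tap1 and Tap2 pumps into the endoplasmic reticulum. Class II molecules are heterodimers of an alpha and a beta chain (RT1-Da with RT1-Db1, RT1-Ba with RT1-Bb), are found mainly on macrophages, dendritic cells and B cells, and present peptides from the endosomes to CD4 T cells. The invariant chain (Cd74) holds class II dimers together and steers them to the endosomes. In the heart, resident macrophages are the main class II bearing cells, whereas B2m and class I are made by many cell types. In bulk tissue, fewer cells of a type and less RNA per cell cannot be told apart.

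RT1 genes are among the most variable genes between rat strains, and several are near-identical copies of each other. To show how alike they are, and which control letters they share, the stretch before the start of transcription is printed for 7 of the genes whose values moved. RefSeq entries were found for 10 of the 10 genes. The sequences are from RefSeq, build GRCr8, which is the genome of the Brown Norway strain and not of SHR or WKY, and it is not the build used for the deposited values. In the 250 bases before each start, 5 motifs were searched on both strands. They are the letters ATTGG (core of the Y box, found in 34.3% of 27457 rat promoters of the same length), TAGCAAC (core of the X1 box, 2.92%), TGACG (core of the X2 box, 19.0%), AANNGAAA (core bound by interferon regulatory factors, 23.0%) and GGGATTC (part of a kappaB-like site, 2.76%). Capitals mark the matches, and neighbouring matches can overlap. The windows lie at chr20:4907069-4907208 (plus strand) for RT1-A1, chr20:4872683-4872845 (plus) for RT1-A2, chr20:4515316-4515385 (plus) for RT1-Da, chr20:4560198-4560291 (minus) for RT1-Db1, chr20:4576973-4577033 (plus) for RT1-Ba, chr20:4604160-4604305 (minus) for RT1-Bb and chr3:129549167-129549285 (plus) for B2m.
RT1-A1: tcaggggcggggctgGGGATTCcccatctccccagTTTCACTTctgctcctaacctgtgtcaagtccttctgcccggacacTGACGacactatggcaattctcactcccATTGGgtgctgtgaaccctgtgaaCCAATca
RT1-A2: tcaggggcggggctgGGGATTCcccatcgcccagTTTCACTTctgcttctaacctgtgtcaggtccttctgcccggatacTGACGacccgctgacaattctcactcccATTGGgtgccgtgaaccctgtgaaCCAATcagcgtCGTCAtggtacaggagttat
B2m: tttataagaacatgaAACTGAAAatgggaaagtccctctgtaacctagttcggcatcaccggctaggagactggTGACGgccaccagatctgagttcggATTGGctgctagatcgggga
RT1-Da: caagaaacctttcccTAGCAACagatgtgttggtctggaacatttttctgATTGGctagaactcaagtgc
RT1-Db1: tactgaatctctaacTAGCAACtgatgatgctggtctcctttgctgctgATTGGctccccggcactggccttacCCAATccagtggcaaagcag
RT1-Ba: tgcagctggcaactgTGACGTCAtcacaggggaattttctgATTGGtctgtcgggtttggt
RT1-Bb: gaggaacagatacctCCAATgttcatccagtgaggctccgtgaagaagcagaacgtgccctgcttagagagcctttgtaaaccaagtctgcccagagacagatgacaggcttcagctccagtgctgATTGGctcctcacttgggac

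The reference promoters of RT1-A1 and RT1-A2, aligned together with 50 bases after each start, were identical at 232 of 251 aligned positions (92.4%). Before the start, both hold the kappaB-like letters, the interferon factor core, TGACG and ATTGG in the same order. These lie farther from the start in RT1-A2, with the kappaB-like letters at -173 to -167 against -125 to -119 in RT1-A1. Each of the 4 class II promoters holds ATTGG. The X1 core TAGCAAC is in the windows of RT1-Da and RT1-Db1, and TGACG in that of RT1-Ba. The X1 core was also found before Cd74 and Tap2, whose windows are not printed, so it is not particular to the RT1-D pair. These matches describe the Brown Norway reference. The promoters of SHR and WKY were not analysed here.

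Values are the deposited FPKM (fragments per length of transcript, scaled to the mapped fragments of the library) divided by 1 rescaling factor per library (0.963 to 1.04), called rescaled FPKM below. Per library, 14279 to 14948 genes were above 0, and the number of fragments behind a value is unknown. The spacing of the lowest values placed the relative depth of the libraries between 0.816 (treated SHR 1) and 1.11 (SHR 2) of that of WKY 1. Across genes, log2 values correlated at 0.985 to 0.99 within a group and at 0.961 to 0.975 between groups. A log2 change is the mean of log2(rescaled FPKM + 0.5) in one group minus that in the other, which understates the change of low genes. Changes were tested with limma over all 9 libraries with Benjamini-Hochberg adjustment over 11718 genes. Calls required an adjusted p under 0.05. All 10 genes passed the filter of 0.5 rescaled FPKM in at least 3 libraries. Ventricular muscle markers were abundant in every library, with sums of 38026 to 51721 rescaled FPKM.

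RT1-A1, a classical class I heavy chain, was about 6 times as high in SHR as in WKY. It was at 80.0, 84.0 and 73.0 rescaled FPKM in treated SHR, at 81.6, 95.4 and 72.4 in SHR and at 13.2, 12.7 and 14.3 in WKY. The values of both SHR groups overlapped and lay far above those of WKY. The log2 change was 2.58 (SE 0.102, adjusted p = 3.62e-07) for SHR against WKY and 2.52 (adjusted p = 5.37e-07) for treated SHR against WKY. For treated SHR against SHR it was -0.066 (SE 0.102, adjusted p = 0.649), and this sign turned without SHR replicate 2 (0.035, adjusted p = 0.818).

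RT1-A2, the neighbouring heavy chain gene in the reference, went the other way. It was at 1.29, 0.984 and 1.40 rescaled FPKM in treated SHR, at 1.50, 2.36 and 2.28 in SHR and at 4.12, 2.94 and 5.55 in WKY. No library of one group overlapped another, with treated SHR lowest and WKY highest. It fell in SHR against WKY (log2 change -0.87, SE 0.213, adjusted p = 0.0152), a call that ended without WKY replicate 3 (-0.66, adjusted p = 0.0520). It fell in treated SHR against WKY (-1.42, adjusted p = 0.00115). Treated SHR against SHR gave -0.55 (SE 0.213), which missed the threshold (adjusted p = 0.0680) and passed without SHR replicate 1 (0.0335), WKY replicate 2 (0.0428) or WKY replicate 3 (0.045), and in a fit of its own 6 libraries (0.0495).

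The ratio of RT1-A1 to RT1-A2 within a library was 66.6 ± 17.0 in treated SHR, 42.2 ± 11.4 in SHR and 3.36 ± 0.878 in WKY (SD, n = 3 each). RT1-A1 made up 98.1% to 98.8% of the sum of both genes in treated SHR, 96.9% to 98.2% in SHR and 72.1% to 81.2% in WKY. With both rows summed before the fit, the log2 change was 2.24 for SHR against WKY (adjusted p = 1.29e-06). The sum was mostly RT1-A1, which set its sign, so it is no estimate of RT1-A2.

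Among the other class I rows of the RT1 region, 4 were called lower and 2 higher in SHR against WKY (21.8% of all tested genes called). RT1-CE3 and RT1-N2 (lower) and RT1-CE2 (higher) passed the filter only with the groups where they were high. RT1-CE7 was at 7.01, 8.08 and 8.57 rescaled FPKM in treated SHR, at 10.7, 9.67 and 6.90 in SHR and at 20.1, 19.4 and 22.1 in WKY. RT1-CE5 was at 9.95 ± 2.18 in treated SHR, 12.7 ± 1.53 in SHR and 23.7 ± 2.01 in WKY. Both genes encode class I heavy chains and fell in SHR against WKY, RT1-CE7 by 1.15 and RT1-CE5 by 0.87 on the log2 scale (adjusted p = 0.000359 and 0.00208). RT1-CE3 was at 0.290 ± 0.0237 rescaled FPKM in treated SHR, 0.151 ± 0.0299 in SHR and 1.85 ± 0.673 in WKY, and RT1-N2 at 0.294 ± 0.188 in treated SHR, 0.484 ± 0.0732 in SHR and 3.21 ± 0.890 in WKY. RT1-N2 fell in SHR against WKY (adjusted p = 0.000238). It reached the filter of 0.5 in the 3 WKY libraries and narrowly in SHR 2 (0.510) and SHR 3 (0.540). Without WKY it would not have been tested, so its p is not read as support. RT1-CE3 reached the filter of 0.5 in the 3 WKY libraries alone, so a lower value in SHR was fixed by the filter and its p is not read as support. The 2 rows that rose, named after their values were seen, were RT1-CE4, with 1.99 ± 0.570 in treated SHR, 1.73 ± 0.469 in SHR and 0.473 ± 0.420 in WKY (adjusted p = 0.0111), and RT1-CE2 (adjusted p = 0.0199), which reached the filter in treated SHR and SHR libraries alone, so that a higher value in SHR was likewise fixed, and whose call ended without SHR replicate 2 (0.0726), SHR replicate 3 (0.0706), WKY replicate 1 (0.0726) or WKY replicate 3 (0.0547).

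Of the 31 other RT1 rows 9 were at 0 in all libraries and 13 were tested. Of these 13, 2 rose and 4 fell in SHR against WKY (21.8% of all tested genes called). In treated SHR against WKY 2 rose and 5 fell (24.3% of all). Both counts of lower rows include RT1-CE3 and RT1-N2, and both counts of higher rows RT1-CE2. Against WKY, the treated SHR call of RT1-CE2 ended in 5 of 18 alternatives and that of RT1-T24-1 in 7. Between treated SHR and SHR 0 of 13 were called by limma (33.5% of all tested genes called), and 3 had an unadjusted p under 0.05. The 27 class I rows of the region summed to 131 to 142 rescaled FPKM in treated SHR, 131 to 159 in SHR and 98.1 to 127 in WKY. RT1-A1 made up 54.7% to 61.1% of that sum in treated SHR, 53.5% to 60.0% in SHR and 11.3% to 13.4% in WKY. The log2 change of this sum was 0.45 for SHR against WKY (SE 0.105, adjusted p = 0.0122) and -0.12 for treated SHR against SHR (adjusted p = 0.410). RT1-A1 was a small part of the sum in WKY, so through RT1-A1 alone the sum could not change as much as RT1-A1 did. The submitters' processing notes name 1 reference build. How reads from the SHR and WKY forms of these genes were shared among near-identical rows was not tested, and strain alleles and expression cannot be told apart in comparisons with WKY. Treated SHR and SHR are of 1 strain, so that comparison has the same strain alleles on both sides.

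**Figure D1:**
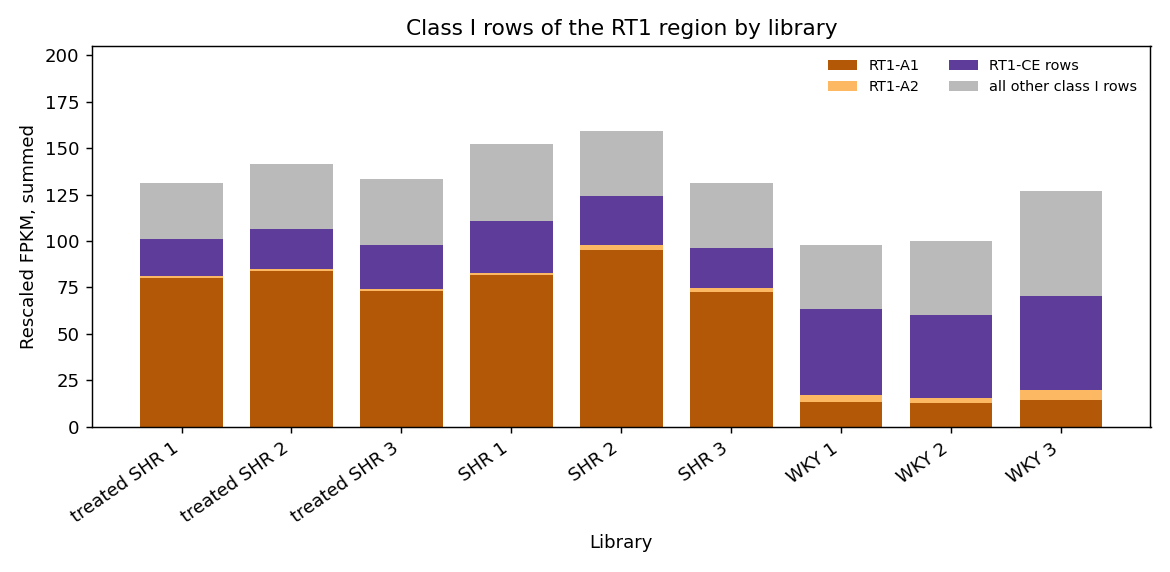
Stacked bars give the summed rescaled FPKM of class I rows of the RT1 region (linear axis) for each library, split into RT1-A1, RT1-A2, the RT1-CE rows and all other class I rows. RT1-A1 made up 53.5% to 61.1% of the bar over the treated SHR and SHR libraries and 11.3% to 13.4% in WKY, while the whole bars reached 131 to 159 in treated SHR and SHR and 98.1 to 127 in WKY.

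B2m, the light chain shared by class I molecules, did not follow the heavy chains but rose with Allisartan. It was at 1005, 997 and 860.1 rescaled FPKM in treated SHR, at 544, 584 and 588 in SHR and at 607, 605 and 704 in WKY. Every treated SHR library lay above all others, and SHR lay just below WKY without overlap. The log2 change was 0.73 (SE 0.0844, adjusted p = 0.000173) for treated SHR against SHR and 0.58 (adjusted p = 0.000984) for treated SHR against WKY. For SHR against WKY it was -0.16 (SE 0.0844), which did not pass (adjusted p = 0.215). These calls held in all 18 alternative settings, with adjusted p of 0.000128 to 0.00125 for treated SHR against SHR. B2m was at 11.6 to 12.4 times the sum of RT1-A1 and RT1-A2 in treated SHR, 5.97 to 7.87 times in SHR and 35.1 to 38.8 times in WKY. That sum was 74.7 to 97.8 rescaled FPKM in SHR, of 131 to 159 over all class I rows. In WKY it was 15.6 to 19.9, of 98.1 to 127. The ratio thus leaves out most class I signal in WKY and is not one of B2m to all heavy chains. Ventricular muscle markers moved with B2m. Their sum was 49258 to 51721 rescaled FPKM in treated SHR, 38026 to 39722 in SHR and 43329 to 46502 in WKY. In treated SHR against SHR 7 of 10 markers were higher and 2 lower (33.5% of all tested genes called). Their part in the B2m result was not tested.

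Tap1 and Tap2, the subunits of the peptide transporter, did not pass in any comparison. Tap1 was at 2.07, 4.26 and 4.08 rescaled FPKM in treated SHR, at 4.69, 4.39 and 3.83 in SHR and at 4.66, 3.95 and 5.53 in WKY. The groups overlapped, and the low value was treated SHR 1, also the library of lowest relative depth. The log2 change was -0.32 for treated SHR against SHR (SE 0.216, adjusted p = 0.274), -0.11 for SHR against WKY (adjusted p = 0.760) and -0.44 for treated SHR against WKY (adjusted p = 0.169). Tap2 was at 0.126, 0.488 and 0.380 rescaled FPKM in treated SHR, at 1.07, 0.719 and 0.163 in SHR and at 0.325, 0.781 and 0.589 in WKY. With a standard error of 0.313 on the log2 scale, Tap2 was measured too loosely to place the groups in an order. Its log2 change was -0.41 (adjusted p = 0.345) for treated SHR against SHR, 0.048 (adjusted p = 0.932) for SHR against WKY and -0.36 (adjusted p = 0.44) for treated SHR against WKY.

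**Figure D2:**
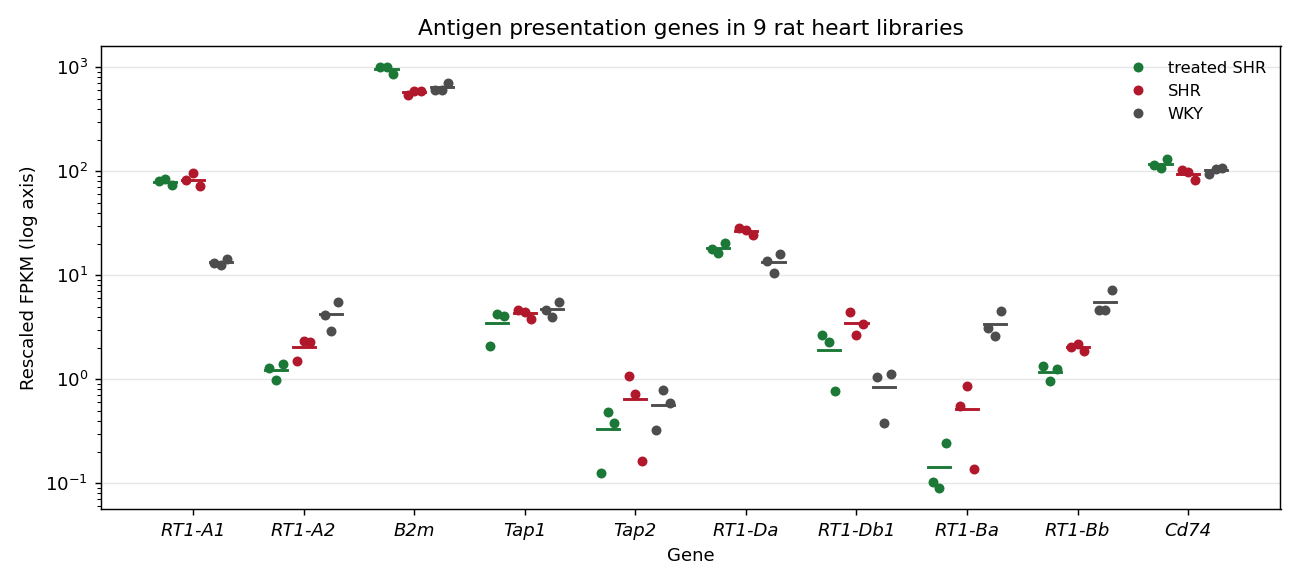
Points are the rescaled FPKM (log axis) of the 10 genes in each of 3 treated SHR, 3 SHR and 3 WKY libraries, and short lines are group means. RT1-A1 was at 72.4 or more in both SHR groups and at most 14.3 in WKY, B2m was highest in treated SHR at 860.1 to 1005, and RT1-Ba and RT1-Bb were highest in WKY.

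The class II genes split by pair between the strains. RT1-Da and RT1-Db1, which form the RT1-D molecule, rose in SHR against WKY, while RT1-Ba and RT1-Bb, which form the RT1-B molecule, fell. Within SHR, the 2 best measured chains, RT1-Da and RT1-Bb, were lower with Allisartan.

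RT1-Da, the RT1-D alpha chain, had the highest rescaled FPKM, a level per length, of the 4 class II chains. It was at 17.9, 16.3 and 20.6 rescaled FPKM in treated SHR, at 28.4, 27.1 and 24.2 in SHR and at 13.7, 10.4 and 15.9 in WKY. No groups overlapped, and treated SHR lay between SHR and WKY. It rose in SHR against WKY by 0.98 (log2, SE 0.141, adjusted p = 0.000909) and fell in treated SHR against SHR by 0.53 (SE 0.141, adjusted p = 0.0151). The fall did not pass without treated SHR replicate 2 (-0.45, adjusted p = 0.0585). Treated SHR lay above WKY by 0.45 (adjusted p = 0.0405), a call that ended in 9 of 18 alternatives (adjusted p of 0.0174 to 0.13). Among these were quantile normalization (0.0579), cyclic loess (0.0524) and leaving out treated SHR replicate 1 (0.0757), treated SHR replicate 3 (0.12), SHR replicate 2 (0.0553), WKY replicate 1 (0.0727) or WKY replicate 2 (0.13).

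RT1-Db1, its beta chain, was at 2.64, 2.27 and 0.776 rescaled FPKM in treated SHR, at 4.45, 2.65 and 3.38 in SHR and at 1.05, 0.378 and 1.12 in WKY. SHR lay above both other groups, though treated SHR 1 and SHR 2 were nearly level. It rose in SHR against WKY by 1.59 (log2, SE 0.342, adjusted p = 0.00802). Treated SHR against SHR gave -0.81 (SE 0.342, adjusted p = 0.0905), and treated SHR against WKY 0.78 (adjusted p = 0.126), which passed without treated SHR replicate 3 (1.18, adjusted p = 0.0158).

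RT1-Ba, the RT1-B alpha chain, was at 0.102, 0.0898 and 0.241 rescaled FPKM in treated SHR, at 0.560, 0.853 and 0.139 in SHR and at 3.12, 2.62 and 4.57 in WKY. Every treated SHR and SHR library was below 1, and every WKY library above 2. The log2 change was -1.99 (SE 0.272, adjusted p = 0.000675) for SHR against WKY and -2.59 (adjusted p = 0.000157) for treated SHR against WKY. Treated SHR against SHR gave -0.60 (SE 0.272, adjusted p = 0.114) and overlapped through SHR 3. Without SHR replicate 3 it was -0.90 (adjusted p = 0.0203). RT1-Ba passed the filter on low values through the 3 WKY libraries and 2 SHR libraries. Without WKY it would not have been tested, so its p in comparisons with WKY is not read as support.

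RT1-Bb, its beta chain, was at 1.34, 0.968 and 1.25 rescaled FPKM in treated SHR, at 2.06, 2.17 and 1.89 in SHR and at 4.65, 4.66 and 7.28 in WKY. The groups did not overlap, with treated SHR lowest and WKY highest. It fell in SHR against WKY by 1.22 (log2, SE 0.169, adjusted p = 0.00072) and in treated SHR against WKY by 1.82 (adjusted p = 7.4e-05). It also fell in treated SHR against SHR by 0.60 (adjusted p = 0.0205), a call that ended without treated SHR replicate 2 (-0.50, adjusted p = 0.073) or SHR replicate 2 (-0.56, adjusted p = 0.0635).

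Summed per library, the RT1-D pair was at 20.1 ± 1.43 rescaled FPKM in treated SHR, 30.05 ± 2.67 in SHR and 14.2 ± 3.13 in WKY (SD, n = 3 each). The RT1-B pair was at 1.33 ± 0.237 in treated SHR, 2.56 ± 0.4998 in SHR and 8.97 ± 2.51 in WKY. The RT1-D pair was 14.2 to 17.5 times the RT1-B pair in treated SHR, 9.83 to 13.6 times in SHR and 1.43 to 1.90 times in WKY. The 4 genes together were at 21.5 ± 1.66 in treated SHR, 32.6 ± 2.95 in SHR and 23.1 ± 5.40 in WKY.

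Reading the class II chains apart or together changed part of the strain result. With the alpha chain rows summed before the fit, the log2 change was 0.69 for SHR against WKY (SE 0.148, adjusted p = 0.00779) and -0.55 for treated SHR against SHR (adjusted p = 0.0164). With the beta chain rows summed (RT1-Bb, RT1-Db1 and RT1-Db2) it was -0.18 for SHR against WKY (SE 0.224, adjusted p = 0.615) and -0.79 for treated SHR against SHR (adjusted p = 0.0212). Both sums fell in treated SHR against SHR. For SHR against WKY the alpha sum rose, whereas the beta sum did not pass and changed by less than its SE, so its direction is not settled. The RT1-D and RT1-B genes are neighbours on chromosome 20 in the reference, in the order RT1-Da, RT1-Db2, RT1-Db1, RT1-Ba and RT1-Bb.

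Cd74, the invariant chain, had the highest level of the class II genes, and its groups lay close together. It was at 115, 108 and 131 rescaled FPKM in treated SHR, at 104, 97.6 and 82.7 in SHR and at 93.3, 106 and 108 in WKY. SHR and WKY overlapped, and treated SHR lay above both, if narrowly. It rose in treated SHR against SHR by 0.32 (log2, SE 0.102, adjusted p = 0.0339), while the log2 changes of the 4 class II chains ran from -0.81 to -0.53. This call ended in 9 of 18 alternatives, with adjusted p of 0.0242 to 0.129. It was 0.0781 with no rescaling, 0.109 with quantile normalization, 0.122 with cyclic loess, 0.0577 with no filter and 0.0568 with a replicate block. It was 0.0579 without treated SHR replicate 1, 0.107 without treated SHR replicate 3, 0.0615 without SHR replicate 2 and 0.129 without SHR replicate 3. The log2 change was -0.12 for SHR against WKY (SE 0.102, adjusted p = 0.455) and 0.20 for treated SHR against WKY (adjusted p = 0.176). Cd74 was 5.23 to 5.73 times the sum of the 4 class II chains in treated SHR, 2.80 to 2.98 times in SHR and 3.76 to 5.84 times in WKY.

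**Figure D3:**
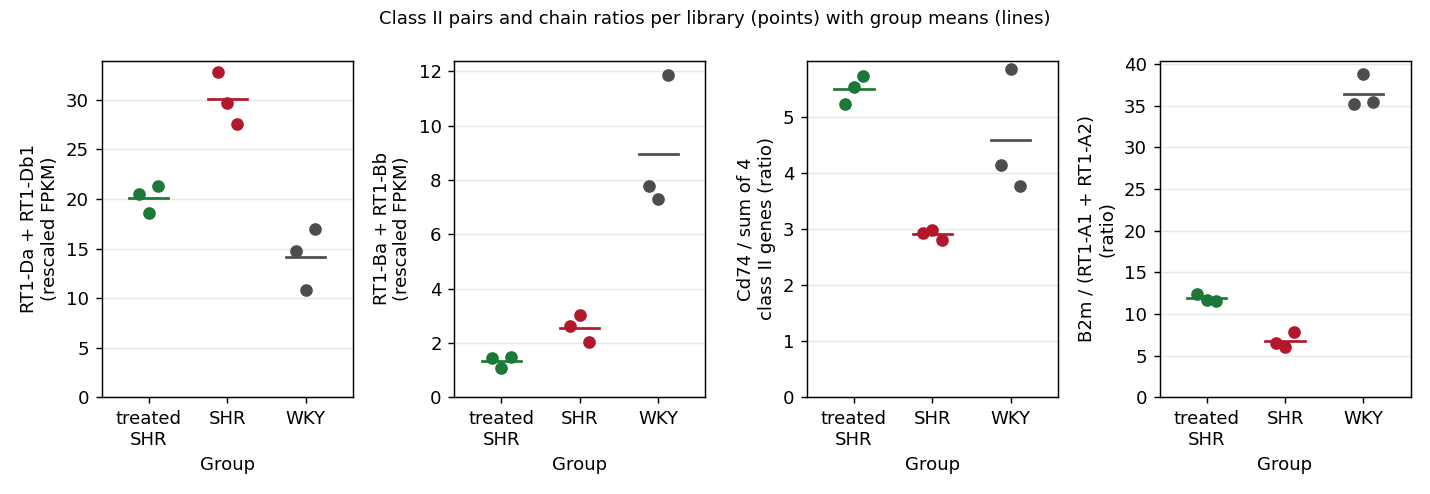
Each panel shows 1 point per library and the group mean as a line on a linear axis from 0, for the summed RT1-D pair, the summed RT1-B pair (both in rescaled FPKM), the ratio of Cd74 to the 4 class II genes and the ratio of B2m to RT1-A1 plus RT1-A2. The RT1-D pair was highest in SHR (30.05 ± 2.67), the RT1-B pair highest in WKY (8.97 ± 2.51), and the Cd74 ratio lowest in SHR (2.80 to 2.98).

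Over the 10 genes, 3 rose (RT1-A1, RT1-Da, RT1-Db1) and 3 fell (RT1-A2, RT1-Ba, RT1-Bb) in SHR against WKY. Over all 11718 tested genes 21.8% were called, 11.9% higher (1396 genes) and 9.92% lower (1162), a split of 1703 higher and 932 lower with no rescaling. For treated SHR against SHR, 2 rose (B2m, Cd74) and 2 fell (RT1-Da, RT1-Bb), against 33.5% of all genes called, 16.1% higher and 17.4% lower, so the share called, 4 of 10, was near the background there. In treated SHR against WKY 3 rose (RT1-A1, RT1-Da, B2m) and 3 fell (RT1-A2, RT1-Ba, RT1-Bb), with 24.3% of all genes called. The counts of lower genes against WKY include RT1-Ba, which would not have been tested without the WKY libraries. The groups did not overlap in 7 of the 10 genes for SHR against WKY, 6 for treated SHR against SHR and 7 for treated SHR against WKY, where 40.9%, 46.4% and 40.1% of all tested genes did not overlap. The median log2 change of the 10 genes was -0.11, -0.47 and -0.08 in these comparisons, against 0.011, -0.026 and -0.0095 over all tested genes. The comparisons share libraries, so their values are not independent of each other.

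**Figure D4:**
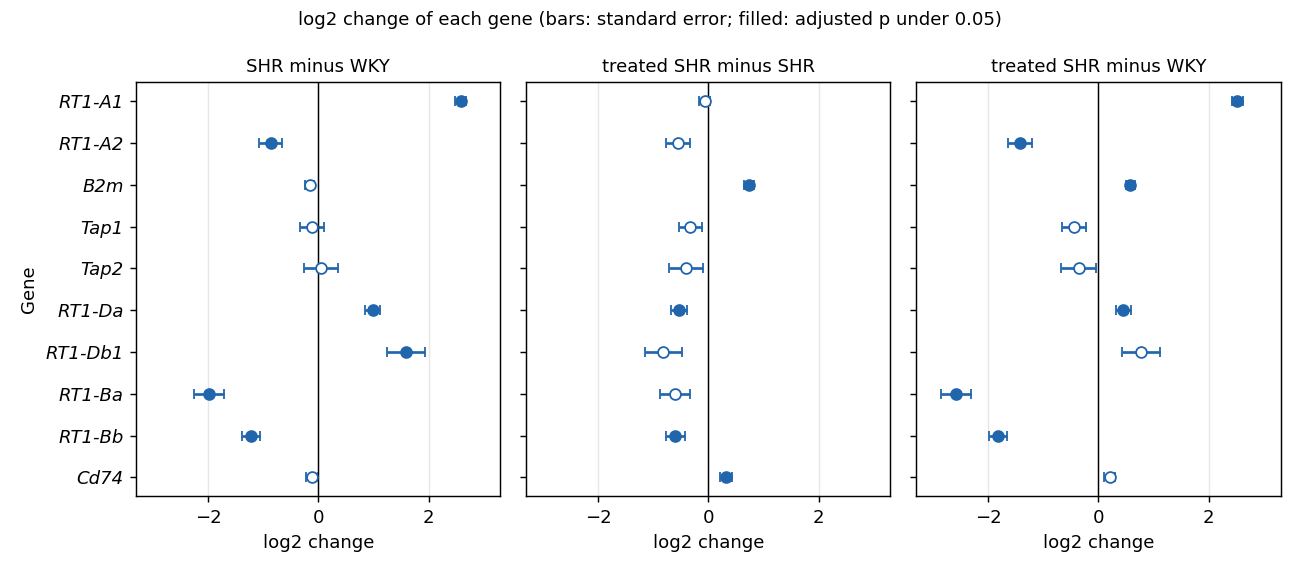
Points give the log2 change of each gene in 3 comparisons (SHR minus WKY on the left, then treated SHR minus SHR, then treated SHR minus WKY on the right), bars are standard errors from limma, and filled points have an adjusted p under 0.05. In SHR minus WKY the changes ran from -1.99 (RT1-Ba) to 2.58 (RT1-A1), whereas in treated SHR minus SHR they ran from -0.81 (RT1-Db1) to 0.73 (B2m).

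Of 5 genes of the immunoproteasome and its activator, 1 rose and 1 fell in SHR against WKY (21.8% of all tested genes called). In treated SHR against SHR 1 rose and 0 fell (33.5% of all), and in treated SHR against WKY 1 rose and 0 fell (24.3% of all). Psmb8, an interferon-inducible catalytic subunit, was at 5.61, 5.89 and 7.27 rescaled FPKM in treated SHR, at 6.36, 5.72 and 5.54 in SHR and at 2.42, 2.51 and 3.57 in WKY. Like RT1-A1, it was higher in SHR than in WKY (log2 change 0.95, adjusted p = 0.00129) and had a log2 change of 0.079 for treated SHR against SHR (adjusted p = 0.707). In the reference, Psmb8 lies between Tap2 and Tap1, which were not called for SHR against WKY (adjusted p = 0.932 and 0.760). Psme1, a subunit of the proteasome activator PA28, was at 287, 286 and 260.1 in treated SHR, at 169, 171 and 151 in SHR and at 269, 228 and 218 in WKY. It rose in treated SHR against SHR by 0.76 (adjusted p = 0.000175) and fell in SHR against WKY by 0.54 (adjusted p = 0.00197).

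Of 7 genes of class I peptide loading and trimming, 2 rose and 0 fell in SHR against WKY (21.8% of all tested genes called). Calr, a chaperone of the heavy chain, was at 168 ± 10.3 in treated SHR, 140 ± 3.20 in SHR and 108 ± 5.34 in WKY, and rose in SHR against WKY (log2 change 0.37, adjusted p = 0.00322). Tapbpl, a peptide editor also known as TAPBPR, was at 6.28 ± 0.362 in treated SHR, 8.20 ± 0.762 in SHR and 5.52 ± 0.507 in WKY, and rose in SHR (0.53, adjusted p = 0.00448). Of the 7 genes 2 rose and 2 fell in treated SHR against SHR (33.5% of all called), with Calr among those higher (0.26, adjusted p = 0.013). In treated SHR against WKY 2 rose and 0 fell (24.3% of all). The Calr call against SHR ended with no rescaling, quantile normalization and cyclic loess, over a range of adjusted p of 0.011 to 0.0983. For treated SHR against SHR, the calls of Canx and Tapbp each ended in 5 of 18 alternatives and that of Tapbpl in 2, and for treated SHR against WKY that of Canx in 9.

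The class II processing genes that were called were all higher in SHR than in WKY, and those called between treated SHR and SHR were all lower in treated SHR. Of 6 tested genes out of 10 listed, 4 rose and 0 fell in SHR against WKY (21.8% of all tested genes called). In treated SHR against SHR 0 rose and 3 fell (33.5% of all). The median log2 changes were 0.55 and -0.58. Of the 4, Ifi30 (adjusted p = 0.0386) lost its call in 6 of 18 alternatives (adjusted p up to 0.127). Ctss, the protease that trims the invariant chain, was at 8.78, 8.17 and 9.55 rescaled FPKM in treated SHR, at 19.2, 20.04 and 20.1 in SHR and at 9.09, 11.8 and 13.0 in WKY. The SHR libraries stood apart from all others, and Ctss fell by 1.12 in treated SHR against SHR (adjusted p = 0.000108) and rose by 0.80 in SHR against WKY (adjusted p = 0.00114). Cd83, which keeps class II at the cell surface, was at 1.07 ± 0.560 in treated SHR, 3.07 ± 0.759 in SHR and 1.13 ± 0.226 in WKY, and fell by 1.23 in treated SHR against SHR (adjusted p = 0.00476). Ifi30, a thiol reductase of the lysosome, was at 9.85 ± 2.84 in treated SHR, 17.0 ± 1.95 in SHR and 11.04 ± 1.92 in WKY, and fell by 0.79 in treated SHR against SHR (adjusted p = 0.0083). Lgmn, an endosomal protease, was the 1 gene that rose in treated SHR against WKY, at 105 ± 3.92 in treated SHR, 101 ± 7.57 in SHR and 82.0 ± 1.59 in WKY (adjusted p = 0.00409). RT1-DMa, a chain of the peptide exchange factor DM, and the DO genes RT1-DOa and RT1-DOb were below the filter and were not tested. The other DM chain, RT1-DMb, was tested and not called (adjusted p = 0.192 for SHR against WKY and 0.451 for treated SHR against SHR).

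Of 9 tested MHC transcription factor genes 0 were called by limma in SHR against WKY, with 2 at an unadjusted p under 0.05. Both in treated SHR against SHR and in treated SHR against WKY 2 rose and 0 fell. Over all tested genes 21.8% were called for SHR against WKY, 33.5% for treated SHR against SHR and 24.3% for treated SHR against WKY. Nlrc5, the class I transactivator, was at 0.696 ± 0.0741 in treated SHR, 0.615 ± 0.0636 in SHR and 0.781 ± 0.129 in WKY (adjusted p = 0.629 for treated SHR against SHR). Ciita, the class II transactivator, was at 0.215 ± 0.103 in treated SHR, 0.298 ± 0.0416 in SHR and 0.124 ± 0.0275 in WKY, below the filter. The genes that rose were Nfyc and Nfya, subunits of the factor that binds the Y box. For treated SHR against WKY the Nfyc call ended in 4 of 18 alternatives and the Nfya call in 1, and for treated SHR against SHR the Nfya call ended in 1. Nfyc was at 13.3 ± 1.71 in treated SHR, 9.04 ± 0.576 in SHR and 9.79 ± 0.812 in WKY (log2 change 0.53 for treated SHR against SHR, adjusted p = 0.00401). In the interferon gamma list 2 of 15 tested genes rose and 0 fell in SHR against WKY. For treated SHR against SHR 1 rose and 2 fell, and for treated SHR against WKY 1 rose and 0 fell. Each share called was below that over all tested genes. Several of these calls ended in alternatives. Irf8 lost its call in 6 of 18 for SHR against WKY and in 9 of 18 for treated SHR against WKY, Cxcl9 in 5 of 18 for treated SHR against SHR, and Jak2 in 2 of 18 for SHR against WKY. Jak2, a kinase of the interferon gamma receptor, fell by 0.57 in treated SHR against SHR (adjusted p = 0.0105). There Ifngr2 fell by 0.44 (adjusted p = 0.0102) and Cxcl9 rose by 0.91 (adjusted p = 0.0311). The median log2 change of the interferon gamma list was 0.071. Cd4, found on helper T cells and on rat macrophages, was at 4.66 ± 0.886 in treated SHR, 9.14 ± 0.575 in SHR and 3.60 ± 0.207 in WKY, and fell by 0.91 in treated SHR against SHR (adjusted p = 0.00051). It was 1 of 3 tested genes of costimulation and MHC receptors, of which 1 rose in SHR against WKY, 2 fell in treated SHR against SHR and 1 fell in treated SHR against WKY. The last was Cd40 (adjusted p = 0.0447), whose call ended in 13 of 18 alternatives (adjusted p up to 0.122).

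**Figure D5:**
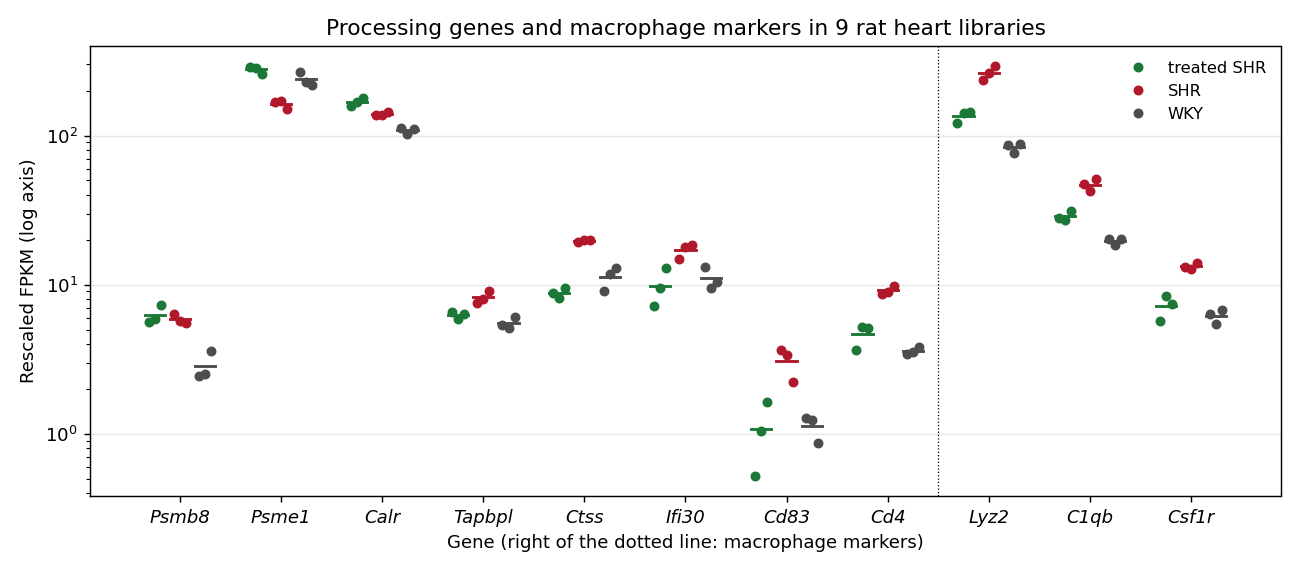
Points are rescaled FPKM (log axis) in 3 treated SHR, 3 SHR and 3 WKY libraries, with group means as lines, for 8 genes of antigen processing and costimulation and, right of the dotted line, 3 macrophage markers. Ctss and the macrophage markers Lyz2, C1qb and Csf1r were highest in SHR, Psmb8 was lowest in WKY (2.42 to 3.57) and Psme1 lowest in SHR (151 to 171).

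The summed level of macrophage markers was highest in SHR, as were RT1-Da, RT1-Db1, Ctss, Cd83 and Ifi30. In contrast, RT1-Ba and RT1-Bb were highest in WKY, and Lgmn did not fall in treated SHR against SHR (log2 change 0.067, adjusted p = 0.483 by limma). The macrophage sum was 236 to 287 rescaled FPKM in treated SHR, 442 to 518 in SHR and 167 to 188 in WKY. Each of the 14 markers was above 0 in every library. Of these 14, 13 rose and 0 fell in SHR against WKY, 0 rose and 11 fell in treated SHR against SHR, and 6 rose and 0 fell in treated SHR against WKY. Over all tested genes 21.8%, 33.5% and 24.3% were called in these comparisons. Fibroblast markers had sums of 460 to 519 in treated SHR, 759 to 814 in SHR and 430 to 480 in WKY. Of the 8 fibroblast markers 5 rose and 0 fell in SHR against WKY, 0 rose and 6 fell in treated SHR against SHR, and 2 rose and 0 fell in treated SHR against WKY. Leukocyte markers summed to 25.1 to 31.3 in treated SHR, 29.4 to 35.04 in SHR and 14.8 to 18.5 in WKY. Dendritic cell markers summed to 7.94 to 10.5 in treated SHR, 12.7 to 14.4 in SHR and 8.63 to 10.2 in WKY. Of the 10 dendritic cell markers 3 were tested, of which 1 rose and 1 fell in SHR against WKY and 2 fell in treated SHR against SHR. Cd209a was at 0 in all libraries, and Xcr1 and Siglech were at most 0.179. B cell markers summed to at most 0.555 in any library and 0 of 7 reached the filter. T cell markers summed to 4.49 to 5.24 in treated SHR, 3.45 to 5.15 in SHR and 3.70 to 4.60 in WKY. The part of macrophage and fibroblast markers in the class II results was not tested. For Cd74, SHR and WKY overlapped (log2 change -0.12, adjusted p = 0.455 by limma), and its relation to the marker sums was not tested either.

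As a description over the 9 libraries, the genes with the pattern most like each of 5 members were found by Pearson's r of log2 values. The libraries fall into 3 groups, which all these values share. For RT1-Da they were Myo5b (r = 0.986), Clec3b (0.984), Spi1 (0.983), Lima1 (0.976) and Col6a3 (0.971). Spi1, the myeloid transcription factor PU.1, averaged 1.13 rescaled FPKM in treated SHR, 1.77 in SHR and 0.679 in WKY. For B2m they were Eif4ebp2 (r = 0.994), Smn1 (0.991), Rgma (0.976), Acsf2 (0.976) and Ndrg2 (0.975). For Cd74 the highest was Pomp, a proteasome assembly chaperone (r = 0.945), which averaged 27.9 in treated SHR, 12.3 in SHR and 14.5 in WKY, followed by Jade1 (0.926), Dclre1b (0.925), Abca8a (0.924) and Them6 (0.912). For RT1-A2 they were Scn1a (r = 0.975), RT1-Bb (0.956), Phc3 (0.953), Cog5 (0.950) and Hmcn1 (0.949), so another RT1 gene ranked second. For Tap1 they were Map4k2 (r = 0.967), Zfp319 (0.933), Sash1 (0.932), Lmbrd2 (0.916) and Kcna4 (0.908).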

How the data were processed

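RNA was isolated with a mirVana kit and sequenced from TruSeq stranded mRNA libraries, per the labels' protocols. The authors deposited 1 table of FPKM values per gene and library. The submitters' processing notes list the build Rnor_6.0 and the tools HISAT2, Trimmomatic, HTSeq, Cufflinks and DESeq, with versions and roles not given in the sources used here. For 27 genes, symbols that had turned into dates were restored through the gene identifier. Each library was divided by a median-of-ratios factor over 9194 genes that reached 1 FPKM throughout. Genes at 0.5 or more in at least 3 libraries were tested (11718), with a pseudocount of 0.5. One mean per group was fitted with limma 3.58.1 in R 4.3.3, with a variance trend and 6 residual degrees of freedom, and tests were two-sided. The procedure was tested on simulated data. Tables were handled in Python 3.11.15 and figures drawn with matplotlib 3.10.9. The genes and lists were chosen with earlier results of these data known. The text names all 10 genes, up to 3 called genes per list and comparison with the smallest p, the 5 genes most alike in pattern, and genes said to be named after their values were seen. Alternatives were other scalings, pseudocounts of 1 and 0.1, no filter, robust moderation, a comparison's own 6 libraries, a replicate block, leaving out each library, and sums over RT1 rows. Read counts were not used here.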

Additional observations from a re-analysis of the deposited data

How the results depend on the processing

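Over 10 genes, 3 comparisons and 18 settings (540 values), 505 kept their direction and side of the threshold, 22 no longer passed, 6 newly passed and 7 changed sign. The genes called numbered 6 for SHR against WKY, with 6 in the 9 settings other than leaving out 1 library and 5 to 6 when 1 library was left out. For treated SHR against SHR the count of 4 became 3 to 5 and, leaving out 1 library, 2 to 5, with 2 without treated SHR replicate 2 and 2 without SHR replicate 2. For treated SHR against WKY the count of 6 became 5 to 6 in either kind of setting. The count over all genes in SHR against WKY (2558) ranged from 1551, without SHR replicate 3, to 2624 when 1 library was left out. In treated SHR against SHR it was 3924, and 2861 to 3838 when 1 was left out. Of these, 1888 were higher and 2036 lower, and 1497 were higher and 2427 lower with no rescaling.

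Tap2 in SHR against WKY (0.048) turned to -0.075 with quantile normalization, -0.092 with cyclic loess, -0.010 with a pseudocount of 0.1, and -0.22, -0.036 and -0.13 without SHR replicate 1, SHR replicate 2 and WKY replicate 1, over a range of -0.22 to 0.40. RT1-A1 in treated SHR against SHR ranged from -0.16 to 0.035. Sums over rows had another sign than some of their rows, by joining rows of opposite direction, and are no estimates of a single row. For SHR against WKY and for treated SHR against WKY, the sum of the class Ia rows, with RT1-A2, gave 2.24 and 2.16. The sum of all class I rows gave 0.45 and 0.33. In the same 2 comparisons the sum of the beta rows, with RT1-Db1, gave -0.18 and -0.96, and that of the alpha rows, with RT1-Ba, 0.69 and 0.15.

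With the replicate number as a block, the genes called were 6, 3 and 6 in SHR against WKY, treated SHR against SHR and treated SHR against WKY, and those over all genes 2544, 3851 and 2758. Deviations of same-numbered libraries correlated at -0.0622 to 0.0827, and those of differently numbered ones at -0.0693 to 0.0637. These values gave no sign of pairing by number. With 3 libraries per group they cannot exclude it, and the labels do not say. Depth is unknown, which limits the low rows Tap2, RT1-Ba and RT1-Db1 most.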
